A study of Mus musculus with 4 samples.

Results

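The interleukin-1 family studied here consists of 10 genes, chosen by symbol from the 32285 genes listed in the deposited matrices. They are the ligands Il1a, Il1b, Il33 and Il18, the receptor antagonist Il1rn, the signalling receptors Il1r1, Il1rl1 and Il18r1, the shared co-receptor Il1rap and the decoy receptor Il1r2. All 10 were found by symbol and detected. They were followed in single cells of whole prostate tumours from 4 castrated mice, and each value below is a sum of unique molecular identifiers (UMIs, 1 per captured transcript) over the cells of 1 type in 1 mouse.

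Interleukin-1 alpha and interleukin-1 beta bind the receptor encoded by Il1r1, which then pairs with the accessory protein encoded by Il1rap and signals through MyD88 and IRAK kinases to NF-kB. The antagonist encoded by Il1rn occupies the same receptor without signalling, and the receptor encoded by Il1r2 binds the ligands but lacks a signalling domain. Interleukin-33 is a nuclear protein of barrier and stromal cells that acts when released, through the receptor ST2 encoded by Il1rl1, on regulatory T cells and type 2 innate lymphoid cells, while interleukin-18 acts on T and NK cells through the receptor encoded by Il18r1. Interleukin-1 beta and interleukin-18 are made as precursors that inflammasomes activate by cleavage, so a transcript level is not a level of active cytokine.

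Among other alleles, the 2 PSp mice carried PB-Cre, SpopF133V and the mTmG reporter, and the 2 PCSp mice carried Chd1L/L in addition. PB-Cre is driven by the probasin promoter, which is active in prostate epithelium, so deletion of the floxed Chd1 allele is directed to that epithelium, and mTmG is a fluorescent membrane reporter that Cre switches. Surgical castration was done in all 4 mice when they were 9 months old, tumours were taken 1 month afterwards, and no uncastrated or tumour-free mouse was analysed here. The labels name separate mice but no batch, litter or age beyond these, and the mouse numbers used here follow the order of deposit and pair nothing.

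The 4 libraries held 6539 to 9656 barcodes and 66874620 to 90839725 UMIs, with median UMIs per barcode from 2289 to 3757. The lowest median was that of PCSp mouse 2. After the cell filters, 5156 to 7794 cells were kept per mouse, and pairs of libraries shared 11 to 27 barcodes. Cells fell into 6 classes with at least 50 cells in every mouse: 12712 epithelial, 5927 neutrophil, 3211 fibroblast, 2122 macrophage or monocyte, 1112 T, NK or innate lymphoid and 784 endothelial cells. Each class was named from its markers alone, so that a name stands for cells like that type. The B or plasma, smooth muscle or pericyte and glial classes held fewer than 50 cells in at least 1 mouse and are described without a test. Chd1 was at 91.6 and 78.4 CPM (the usual scaling of UMIs to the total of that class in that mouse) in the epithelium of PSp mice. In that of PCSp mice it was at 59.7 and 56.5 CPM, lower in both. In each of the other 5 tested classes Chd1 was higher in both PCSp mice than in both PSp mice. Lymphoid cells, for example, held 101 and 92.4 CPM in PSp mice and 142 and 132 CPM in PCSp mice.

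The 250 bases before the start of transcription in RefSeq (GRCm38.p6) are shown for 5 members. Of these, Il1a, Il1b, Il1rn and Il1r2 were highest in neutrophils and next highest in macrophages in these data, while Il33 follows a stromal and basal pattern. Il1rn is shown at 2 of its 3 listed starts: the upstream start gives an intracellular form and the downstream start the secreted form, and the 3' tags counted here do not tell these forms apart. The third start lies shortly after the downstream start shown, and its window is not printed. Capitals mark matches on either strand to the letters GGNNNTTCC (NF-kB type), TTGCNNAA (C/EBP type) or TGANTCA (AP-1 type), and each line runs 5′ to 3′ on the strand of its gene.
Il1a (chr2:129309973-129310222, minus strand): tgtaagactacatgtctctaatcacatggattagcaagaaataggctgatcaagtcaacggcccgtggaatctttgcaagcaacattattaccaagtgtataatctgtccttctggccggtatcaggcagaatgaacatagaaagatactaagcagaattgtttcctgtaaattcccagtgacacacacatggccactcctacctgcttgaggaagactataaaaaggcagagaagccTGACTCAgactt
Il1b (chr2:129371140-129371389, minus strand): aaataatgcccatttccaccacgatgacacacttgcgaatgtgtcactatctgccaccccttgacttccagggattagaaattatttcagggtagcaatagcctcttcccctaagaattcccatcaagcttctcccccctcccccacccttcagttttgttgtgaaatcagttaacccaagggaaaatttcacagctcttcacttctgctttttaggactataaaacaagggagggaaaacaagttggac
Il1rn, upstream start (chr2:24336610-24336859, plus strand): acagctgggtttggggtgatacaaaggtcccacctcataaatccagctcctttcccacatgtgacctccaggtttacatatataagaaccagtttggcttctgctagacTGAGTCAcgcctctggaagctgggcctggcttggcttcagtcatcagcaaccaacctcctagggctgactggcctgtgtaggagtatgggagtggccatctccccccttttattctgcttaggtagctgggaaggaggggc
Il1rn, downstream start (chr2:24345041-24345290, plus strand): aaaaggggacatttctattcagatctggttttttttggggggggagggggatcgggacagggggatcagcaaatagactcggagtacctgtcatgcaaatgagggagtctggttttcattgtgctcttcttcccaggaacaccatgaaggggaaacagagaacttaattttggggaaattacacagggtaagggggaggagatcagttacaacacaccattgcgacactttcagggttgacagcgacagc
Il1r2 (chr1:40085843-40086092, plus strand): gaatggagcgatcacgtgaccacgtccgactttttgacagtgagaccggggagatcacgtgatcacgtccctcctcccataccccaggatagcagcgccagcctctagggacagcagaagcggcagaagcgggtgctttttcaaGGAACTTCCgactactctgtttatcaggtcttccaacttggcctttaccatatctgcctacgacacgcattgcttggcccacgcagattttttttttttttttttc
Il33, upstream start (chr19:29924863-29925112, plus strand): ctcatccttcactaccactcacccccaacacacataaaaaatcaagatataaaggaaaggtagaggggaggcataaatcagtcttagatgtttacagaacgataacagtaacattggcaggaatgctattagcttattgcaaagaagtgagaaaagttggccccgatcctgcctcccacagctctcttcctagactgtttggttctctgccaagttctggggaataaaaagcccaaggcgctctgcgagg

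Among these windows, Il1a has TGACTCA 12 bases before its start and the upstream Il1rn window has TGAGTCA 141 bases before its start. Il1r2 has GGAACTTCC 106 bases before its start. The windows of Il1b, of the downstream Il1rn start shown and of the first Il33 start hold none of these letters. Of all 32851 windows of this length in the table, 15.7% hold GGNNNTTCC, 9.56% hold TTGCNNAA and 6.75% hold TGANTCA on either strand. Over the 17 starts listed for the 10 members, TTGCNNAA was also found once each for Il1r1, Il33 and Il1rl1, and GGNNNTTCC once each for Il1r1 and for the third Il1rn start. A match describes letters in this window and shows no binding.

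The family divided into a myeloid group, a stromal and epithelial group and a lymphoid group. Il1b, Il1a, Il1rn, Il1r2 and Il1rap were highest in neutrophils, Il1r1 and Il33 in fibroblasts, Il1rl1 and Il18r1 in lymphoid cells, and Il18 was at a like level in macrophages and neutrophils. To ask whether the highest class stood above the next, sums were compared with edgeR's quasi-likelihood test with the mouse as a block, adjusted over 13799 genes. Since the order of classes was read from the same values, such a test shows only whether neighbours in that order differ beyond the spread between mice. Of the 10 members, 9 were higher in the first class than in the second and Il18 was not, against backgrounds of 34.6% of all genes higher in neutrophils than in macrophages, 37.2% in neutrophils than in fibroblasts, 25.9% in fibroblasts than in endothelium, 35.2% in fibroblasts than in epithelium, 24.1% in lymphoid cells than in macrophages, 26.9% in lymphoid cells than in epithelium and 32.4% in macrophages than in neutrophils. The edgeR folds between classes include a normalization that moves all genes by 0.42 on the log2 scale for neutrophils over macrophages and by 0.65 for neutrophils over fibroblasts relative to CPM, and by at most 0.19 in size for the other pairs of highest and next class except macrophages over neutrophils.

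**Figure D1:**
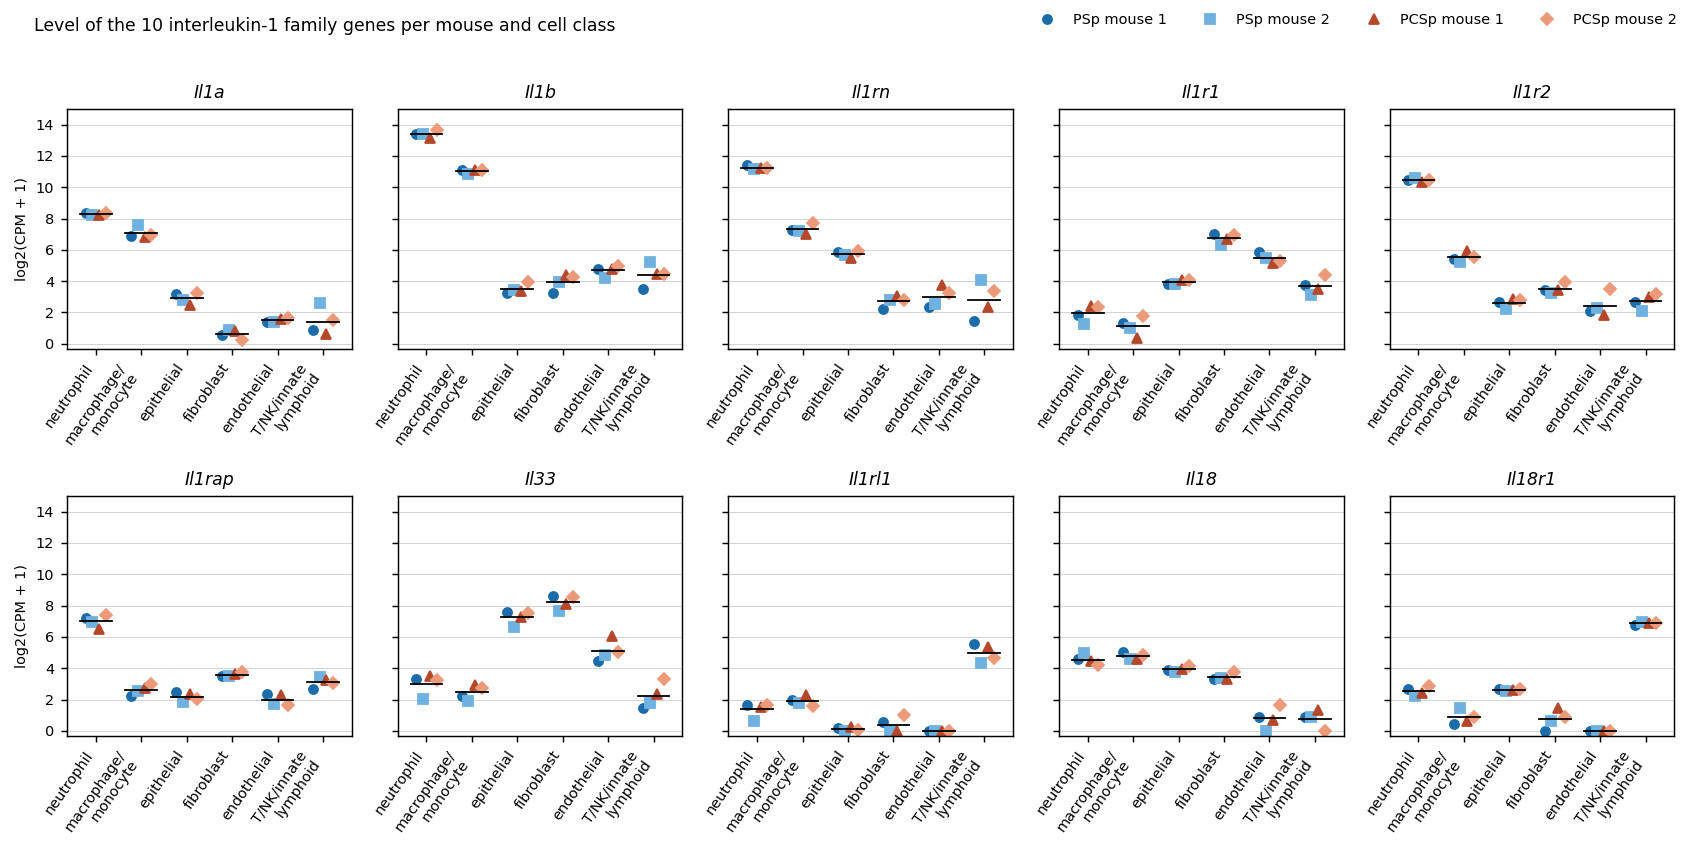
Level of each of the 10 members in the 6 tested cell classes, as log2(CPM + 1) on the vertical axis, with 1 point per mouse and a line at the mean of the 4 mice. Il1b, Il1a, Il1rn, Il1r2 and Il1rap peak in neutrophils, Il1r1 and Il33 in fibroblasts, and Il1rl1 and Il18r1 in lymphoid cells.

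Il1b (ENSMUSG00000027398, chr2:129364570-129371139, minus strand, GRCm38) encodes the secreted ligand of the inflammasome pathway and was by far the most abundant member. In neutrophils it stood at 10736 and 10987.7 CPM in PSp mice and at 9091 and 12686 CPM in PCSp mice, or 21.3 to 29.5 UMIs per cell. In macrophages and monocytes it stood at 2144 and 1832 CPM in PSp mice and at 2211 and 2181 CPM in PCSp mice. All 4 neutrophil values lay above all 4 macrophage values. The genotypes overlapped in neutrophils, where both extremes were PCSp mice, and PSp mouse 2 was the lowest in macrophages. The difference between the classes was 2.79 ± 0.16 on the log2 scale (SE, n = 4 mice, edgeR adjusted p = 2.31e-14). The antisense gene Il1bos overlaps Il1b, with 373 UMIs against 172973 for Il1b, and the sources used here do not state whether counting used the strand.

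Outside these myeloid classes Il1b was near what neutrophil RNA carried over between droplets could give. Its means were 25.2 CPM in endothelium, 22.2 in lymphoid cells, 15.2 in fibroblasts and 10.4 in epithelium. From the lowest and highest ratio of 3 abundant neutrophil markers (S100a8, S100a9 and G0s2) between the classes, carry-over could give 10.5 to 24.1 CPM in epithelium, 13.8 to 22.2 in lymphoid cells and 12.6 to 120 in endothelium, and 16.3 to 501 in fibroblasts, where the bounds are too far apart to be of use. The epithelial level lay below the upper bound in 4 of 4 mice and above the lower bound in 3 of 4, so it could not be told from background. Endothelium and lymphoid cells did not differ beyond their spread in Il1b (log2 difference -0.04 ± 0.28, edgeR adjusted p = 0.931).

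Cell by cell, 84.2% to 92.2% of neutrophils had at least 1 Il1b UMI in each mouse, at a median depth of 2151 UMIs, against 5.35% to 7.44% of lymphoid cells, a type that should lack it, at a median depth of 4323 UMIs. With cells thinned to 1000 UMIs, and cells of fewer UMIs left out, the shares were 82.2% to 91.0% and 1.30% to 2.36%. In macrophages and monocytes 45.3% to 56.9% of cells had an Il1b UMI, or 39.9% to 54.3% after thinning. The gap between neutrophils and lymphoid cells was thus as wide after thinning. The genes whose levels most resembled Il1b over the 24 sums of 6 classes and 4 mice were Cd33 (Pearson r of log2(CPM + 1) = 0.992), Clec4n and Tlr13. These sums share mice and libraries, so such correlations only describe which genes follow the same classes.

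Il1a (ENSMUSG00000027399, chr2:129299610-129309972, minus strand) encodes the cell-associated ligand that acts without inflammasome cleavage. Its neutrophil level was 325 and 297 CPM in PSp mice and 299.9 and 327 CPM in PCSp mice. In macrophages and monocytes it was 119 and 192 CPM in PSp mice and 113 and 123 CPM in PCSp mice. The classes did not overlap, and neutrophils stood above macrophages by 1.62 ± 0.15 on the log2 scale (SE, n = 4 mice, edgeR adjusted p = 2.31e-10). Epithelium followed at 7.90 and 5.95 CPM in PSp mice and 4.57 and 8.61 CPM in PCSp mice, above the 0.705 CPM that neutrophil carry-over could give, in 4 of 4 mice. Il1a therefore reached the epithelium at a level where Il1b could not be told from background. Lymphoid, endothelial and fibroblast levels were 2.07 CPM or less on average, and the neighbours among them did not differ beyond their spread (edgeR adjusted p = 0.797 and 0.164). Its most similar genes were Gas2l3 (r = 0.982), Pilrb2 and Clec5a.

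Il1rn (ENSMUSG00000026981, chr2:24336853-24351494, plus strand), the receptor antagonist, was the second most abundant member in neutrophils. It stood there at 2683 and 2269.7 CPM in PSp mice and 2415 and 2426 CPM in PCSp mice. Macrophages and monocytes held 156 and 145 CPM in PSp mice and 126 and 213 CPM in PCSp mice, which is lower by 4.37 ± 0.18 on the log2 scale (SE, n = 4 mice, edgeR adjusted p = 2.31e-17). Epithelium held 58.1 and 50.5 CPM in PSp mice and 44.0 and 60.8 CPM in PCSp mice. This epithelial level lay above the 5.58 CPM that neutrophil carry-over could give, in 4 of 4 mice. Between 26.7% and 34.1% of epithelial cells had an Il1rn UMI, at a median depth of 9584 UMIs, against 1.07% to 1.99% of lymphoid cells. With cells thinned to 1000 UMIs these shares were 2.86% to 5.09% and 0.259% to 0.943%. Lymphoid cells, endothelium and fibroblasts were between 5.72 and 7.77 CPM on average and did not differ beyond their spread as neighbours in the order (edgeR adjusted p = 0.778 and 0.683). The closest patterns were those of Slc16a3 (r = 0.977), Cxcl2 and Rabgef1.

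The balance of antagonist to agonist differed widely between classes. Of the UMIs of Il1rn, Il1a and Il1b together, Il1rn made up 75.8% in epithelium (range over the 4 mice 72.7% to 77.9%), 18.1% in neutrophils (15.7% to 20.5%) and 6.68% in macrophages and monocytes (5.14% to 8.45%). The 3 ranges did not overlap. The share of Il1a among the agonists Il1a and Il1b was 39.3% in epithelium (33.3% to 48.0%), 6.24% in macrophages and monocytes (4.88% to 9.47%) and 2.82% in neutrophils (2.51% to 3.19%). Epithelial Il1b could not be told from background above, and any carried-over Il1b counted here lowers both epithelial shares.

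Il1r2 (ENSMUSG00000026073, chr1:40074079-40125231, plus strand), the decoy receptor, was the member most concentrated in neutrophils. It stood at 1386 and 1525 CPM in PSp mice and at 1301 and 1433 CPM in PCSp mice, with 41.9 and 36.5 CPM and 60.0 and 46.0 CPM in the macrophages of the same mice. The difference was 5.37 ± 0.16 on the log2 scale (SE, n = 4 mice, edgeR adjusted p = 2.79e-20). Between 73.7% and 81.7% of neutrophils had an Il1r2 UMI, against 1.84% to 2.62% of lymphoid cells, or 59.1% to 65.5% against 0.347% to 0.943% after thinning. Fibroblasts followed at 10.6 CPM, and lymphoid cells, epithelium and endothelium were between 5.09 and 5.93 CPM without a difference between neighbours beyond their spread (edgeR adjusted p = 0.584 and 0.330). Genes with the most similar pattern were Tlr6 (r = 0.984), Cebpe and Gm37800. The genes Gm37347 and Gm16894 overlap Il1r2, with 222 UMIs in all against 20649. Genes on the other strand also overlap Il1a (Gm14023, 244 UMIs against 7264) and Il18 (Bco2 and Tex12, 311 UMIs against 3970).

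Il1rap (ENSMUSG00000022514, chr16:26581704-26730117, plus strand), the co-receptor that interleukin-1 and interleukin-33 receptors share, was also highest in neutrophils among the tested classes. Its levels there were 146 and 121 CPM in PSp mice and 89.5 and 165 CPM in PCSp mice, with both extremes in the PCSp group. Fibroblasts, the next class, held 10.2 to 12.4 CPM, lower by 4.19 ± 0.18 on the log2 scale (SE, n = 4 mice, edgeR adjusted p = 9.18e-18). Fibroblasts, lymphoid cells (7.77 CPM) and macrophages (5.36 CPM) did not differ beyond their spread as neighbours (edgeR adjusted p = 0.213 and 0.431). In the 80 glial cells, 16 Il1rap UMIs gave a mean of 105 CPM with a range of 24.6 to 203 CPM. Il1rap was most like Acod1 (r = 0.957), Slc26a11 and Wfdc21.

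The signalling receptor showed the opposite distribution. Il1r1 (ENSMUSG00000026072, chr1:40225080-40317257, plus strand) stood in fibroblasts at 129.8 and 78.5 CPM in PSp mice and at 101 and 124 CPM in PCSp mice. Endothelium held 58.3 and 44.0 CPM in PSp mice and 34.4 and 38.0 CPM in PCSp mice. The classes did not overlap and differed by 1.46 ± 0.17 on the log2 scale (SE, n = 4 mice, edgeR adjusted p = 3.87e-08). Smooth muscle or pericytes, with 32 to 78 cells per mouse, lay between them at 57.8 to 92.7 CPM and were not tested.

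In epithelium Il1r1 was at 13.3 and 12.8 CPM in PSp mice and 15.7 and 15.5 CPM in PCSp mice, and it did not differ beyond the spread from lymphoid cells at 12.6 CPM on average (log2 difference 0.22 ± 0.24, edgeR adjusted p = 0.420). Neutrophils were at 3.09 CPM and macrophages at 1.30 CPM on average, the latter from 16 UMIs in 2122 cells. The cells richest in ligand thus had the lowest levels of the signalling receptor. Golim4 (r = 0.961), Tshz3 and Airn were the genes most like Il1r1.

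Of the UMIs of both receptors, the decoy Il1r2 made up 99.8% in neutrophils (range over mice 99.7% to 99.9%) and 97.1% in macrophages and monocytes (95.1% to 99.5%). It made up 26.8% in epithelium (22.5% to 28.8%), 32.3% in lymphoid cells (29.0% to 39.4%), 10.6% in endothelium (5.33% to 21.7%) and 8.98% in fibroblasts (7.01% to 10.3%). Every myeloid value lay above every value of the other 4 classes. Outside the myeloid classes Il1r2 was low: carry-over from neutrophils could give up to 15.6 CPM in endothelium and 66.5 in fibroblasts, above the level in 4 of 4 mice in each, and up to 3.16 of the 5.30 CPM in epithelium. The shares in these classes are therefore upper limits for each class as a whole, and shares within the epithelium are given below.

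Il33 (ENSMUSG00000024810, chr19:29925114-29960718, plus strand), the alarmin, was shared by fibroblasts and epithelium. Fibroblasts held 399 and 204 CPM in PSp mice and 269 and 381 CPM in PCSp mice. Epithelium held 194 and 96.5 CPM in PSp mice and 151 and 184 CPM in PCSp mice. In each mouse the fibroblast level was the higher, and the difference was 0.98 ± 0.16 on the log2 scale (SE, n = 4 mice, edgeR adjusted p = 4.39e-06). PSp mouse 2 was the lowest in both classes and PSp mouse 1 the highest in both, so the widest gap lay within 1 genotype. Endothelium followed at 36.7 CPM on average, and macrophages and lymphoid cells were the last, at 4.68 and 4.41 CPM, without a difference beyond their spread (edgeR adjusted p = 0.615). An Il33 UMI was found in 41.1% to 51.8% of fibroblasts at a median depth of 5219 UMIs, in 24.8% to 40.6% of epithelial cells and in 0.810% to 2.43% of neutrophils. After thinning the shares were 14.9% to 26.3%, 7.18% to 12.9% and 0.304% to 0.919%. Adh1 (r = 0.974), Cacna2d1 and Fst had the patterns most like it.

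The receptor of interleukin-33, Il1rl1 (ENSMUSG00000026069, chr1:40429570-40465415, plus strand), was the rarest member, with 266 UMIs in all kept cells. Lymphoid cells held 45.7 and 19.3 CPM in PSp mice and 40.0 and 23.8 CPM in PCSp mice, from 177 UMIs. The genotypes overlapped, and both extremes were PSp mice. Macrophages and monocytes held 2.88 CPM on average, lower by 3.27 ± 0.38 on the log2 scale (SE, n = 4 mice, edgeR adjusted p = 9.95e-08), and did not differ beyond the spread from neutrophils (edgeR adjusted p = 0.571). No Il1rl1 UMI was found in endothelium. Ptpn22 (r = 0.961), Cst7 and Gm15472 were the closest genes.

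Il18 (ENSMUSG00000039217, chr9:50554827-50581840, plus strand) was the ligand without a single highest class, with like levels in macrophages and neutrophils. It stood at 31.3 and 23.5 CPM in PSp mice and 22.7 and 28.0 CPM in PCSp mice in macrophages, at 23.4 and 30.4 CPM and 20.8 and 17.2 CPM in neutrophils, and at 13.7 and 12.5 CPM and 14.4 and 17.05 CPM in epithelium. Macrophages and neutrophils overlapped and did not differ by more than the spread (log2 difference -0.22 ± 0.17, edgeR adjusted p = 0.264), and the sign turned to 0.19 without normalization factors. Neutrophils stood above epithelium, as 34.1% of genes did, by 1.29 ± 0.16 on the log2 scale (edgeR adjusted p = 3.11e-08), and epithelium above fibroblasts, at 9.95 CPM and as 37.6% of genes did, by 0.56 ± 0.17 (edgeR adjusted p = 0.00381). Relative to CPM, normalization moves all genes by 0.62 in the first of these folds and by 0.03 in the second. In the endothelium only 4 UMIs and in lymphoid cells only 5 UMIs were counted. Krt80 (r = 0.927), Bcl6 and Snrnp35 came nearest in pattern.

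Il18r1 (ENSMUSG00000026070, chr1:40465552-40500854, plus strand), the receptor chain that binds interleukin-18, was a lymphoid gene with little spread between mice. Its lymphoid levels were 105 and 125 CPM in PSp mice and 120.0 and 117 CPM in PCSp mice. Epithelium held 4.96 to 5.47 CPM, lower by 4.50 ± 0.17 on the log2 scale (SE, n = 4 mice, edgeR adjusted p = 6.71e-17). An Il18r1 UMI was seen in 22.6% to 30.5% of lymphoid cells and in 0 of 784 endothelial cells, which allows a share of up to 0.383% of endothelial cells with a UMI. Stk24 (r = 0.952), Jakmip1 and Tnfrsf18 were most like it.

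Il1r2, Il1r1, Il1rl1 and Il18r1 lie side by side on chromosome 1 in GRCm38, in this order on the plus strand, together with Il1rl2 and Il18rap. The genes of this cluster did not all have the same highest class, which was neutrophils for Il1r2, fibroblasts for Il1r1 and for Il1rl2 (11.6 CPM), and lymphoid cells for Il1rl1 and Il18r1. Il18rap, the signalling partner of Il18r1, was higher in neutrophils (73.5 CPM) than in lymphoid cells (29.1 CPM), although Il18r1 stood at 5.00 CPM in neutrophils. Il1a and Il1b lie near each other on chromosome 2 and had the same highest class.

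**Figure D2:**
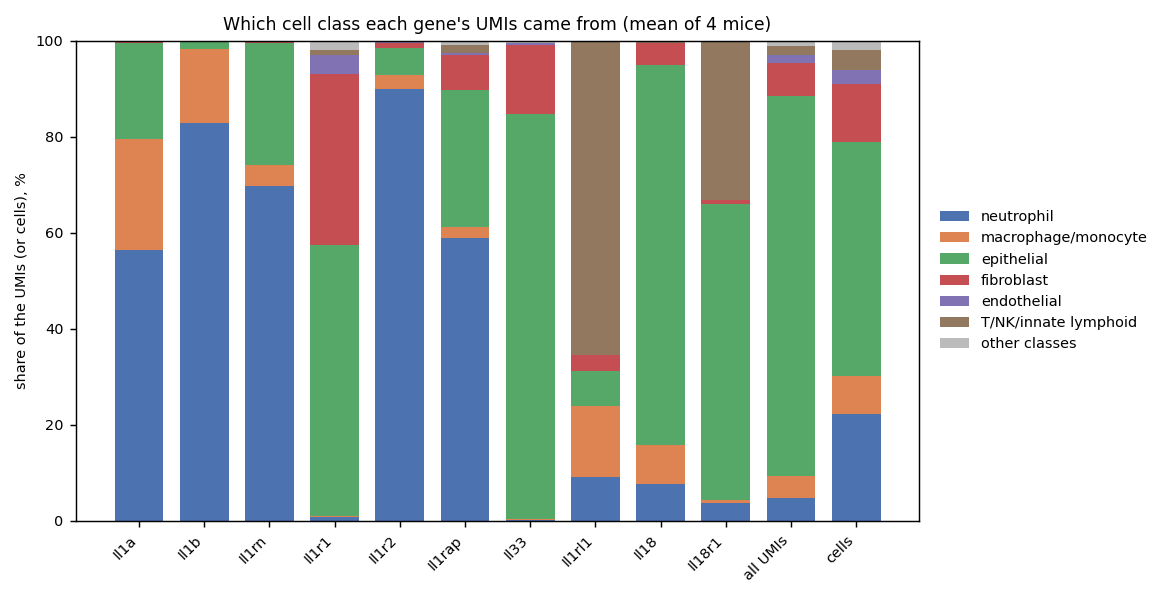
Share of all UMIs of each member that came from each cell class, in percent on the vertical axis, as the mean of the 4 mice with classes stacked in colours. Neutrophils gave 82.9% of Il1b and 89.9% of Il1r2 UMIs, and epithelium gave 84.3% of Il33 and 79.0% of Il18 UMIs.

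Levels per class and the origin of the transcripts in the tumour differ, because epithelium held 79.2% of all UMIs in the kept cells. Neutrophils gave 82.9% of Il1b UMIs and macrophages 15.4%. They gave 89.9% of Il1r2, 69.8% of Il1rn, 58.8% of Il1rap and 56.4% of Il1a UMIs. Epithelium, at a lower CPM than the highest class of each gene, gave 25.4% of Il1rn, 20.1% of Il1a, 56.4% of Il1r1, 79.0% of Il18 and 61.7% of Il18r1 UMIs. By the markers Nkg7, Cd3g and Trbc2, lymphoid carry-over could give up to 3.74 of the 5.21 CPM of Il18r1 in epithelium. The level lay above this bound in 4 of 4 mice, but the epithelial share of Il18r1 is an upper limit. Of Il33 UMIs 84.3% came from epithelium and 14.4% from fibroblasts, although the level was higher in fibroblasts. These shares depend on which cells survived dissociation and passed the filters.

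Each class was clustered again, without the members and listed pathway genes among the genes that define clusters, and sub-clusters are described without a test. In neutrophils the agonists, the antagonist and the decoy did not follow each other. The 888 cells of sub-cluster 0, led by Prok2 and Itpr2, had the lowest Il1b (5065 CPM, range over mice 3607 to 6868) and the lowest Il1r2 (438 CPM, 359 to 495) of all, with Il1rn at 2952 CPM. The 542 cells of sub-cluster 5, led by Hp and Retnlg, had the lowest Il1rn (1098 CPM, 885 to 1297) and Il1a (70.7 CPM, 50.6 to 99.5), with Il1b at 13492 CPM and Il1r2 at 1973 CPM. Il1rn made up 36.7% of the Il1rn, Il1a and Il1b UMIs in sub-cluster 0 (29.6% to 45.1%) and 7.46% in sub-cluster 5 (6.94% to 8.09%). The agonist-to-antagonist balance thus differed between sub-clusters in every mouse.

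The highest Il1rn was in sub-cluster 11, led by Ifi207 and F10, at 3800.2 CPM (3349.9 to 4337). Il1a was highest in sub-cluster 9, led by Gm20186 and Bcl2a1d, at 650.2 CPM (420.1 to 1003), and next in sub-cluster 7, led by the interferon-induced genes Gbp5 and Cxcl10, at 537 CPM. Sub-cluster 7 also had an Il18 level of 103 CPM (81.9 to 114), against at most 35.6 CPM in the others. It held 13.4% and 15.2% of neutrophils in PSp mice, against 12.003% and 8.18% in PCSp mice, with 68.8% and 60.4%, and 65.7% and 42.2%, of the neutrophil Il18 UMIs. The co-receptor Il1rap was highest in sub-cluster 8, led by the chemokine Cxcl3, at 286 CPM, and lowest in sub-cluster 1, led by Ltc4s and Siglecf, at 73.3 CPM.

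**Figure D3:**
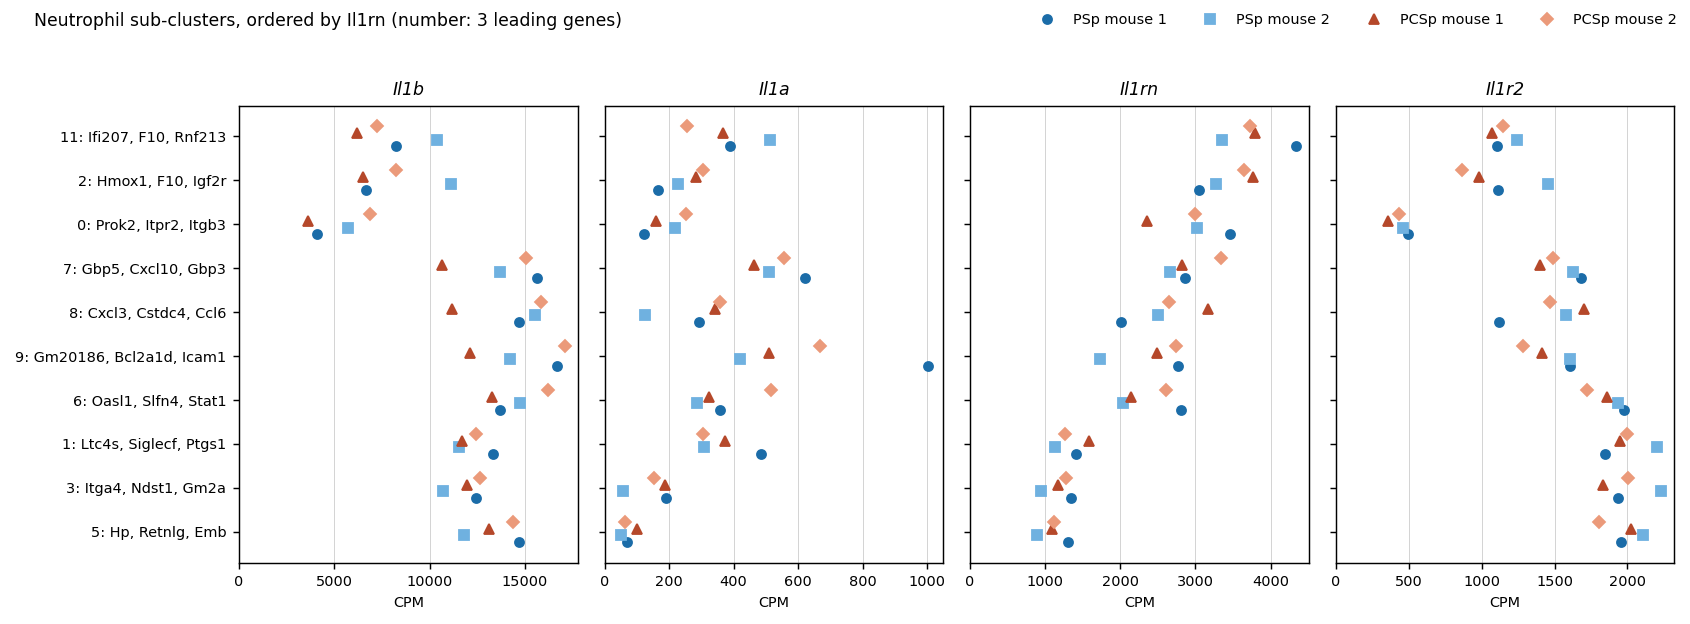
CPM of Il1b, Il1a, Il1rn and Il1r2 on the horizontal axis in the neutrophil sub-clusters, 1 point per mouse. Sub-clusters are ordered from bottom to top by mean Il1rn, with those holding markers of another class left out. Il1rn runs from 1098 to 3800.2 CPM on average, while sub-cluster 0 is the lowest in both Il1b and Il1r2.

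Among macrophages and monocytes, sub-clusters 5, 6, 7, 8, 10 and 11 also held markers of epithelium or neutrophils. They include the 540 cells of sub-cluster 5, at a median of 878 UMIs, so part of this class is mixed. Il1b was highest in the 201 cells of sub-cluster 9, led by Creb5 with Ccl4 among its leading genes, at 4365 CPM (4054 to 5036). The 149 cells of sub-cluster 0, led by Retnla, Ear2 and Fn1, held 3273 CPM, and the 149 cells of sub-cluster 2, led by Gpnmb and Spp1, held 946 CPM. Il1r2 was highest in sub-cluster 0, at 155 CPM, against 7.59 CPM in sub-cluster 2. The antagonist Il1rn was highest, at 340.2 CPM, in sub-cluster 8, led by the tissue macrophage gene Lyve1. This sub-cluster also met 3 neutrophil markers, and neutrophils held 2448 CPM of Il1rn on average. The part of neutrophil RNA in this level was not tested.

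In epithelium Il33 was highest in some of the basal-like sub-clusters. Sub-cluster 4, with 1828 cells that met 8 of 8 basal markers, held 563 CPM (495 to 598), and the low-depth sub-clusters 15 and 17, also basal-like, held 906 and 462 CPM. Basal-like sub-clusters 7 and 5 held less, 248 and 28.0 CPM, and the cycling sub-cluster 16 held 269 CPM. Sub-clusters 4, 15 and 17 were grouped because their Il33 was high. They held 16.2%, 12.1%, 20.2% and 19.6% of epithelial cells in PSp mouse 1, PSp mouse 2, PCSp mouse 1 and PCSp mouse 2, with 42.6%, 53.8%, 67.1% and 56.7% of the epithelial Il33 UMIs. Their own level was 594, 492, 575 and 579 CPM, and the rest of the epithelium held 129, 49.9, 60.3 and 97.2 CPM in the same order. The mouse with the lowest epithelial Il33, PSp mouse 2, thus had the fewest of these cells and the lowest level both within and outside them. The part of cell makeup in the spread between mice was not tested.

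Il1rn had the reverse distribution in epithelium. It was lowest in basal-like sub-cluster 4, at 11.1 CPM, and reached 109.8 CPM in sub-cluster 10, led by Reg3b, 76.6 CPM in sub-cluster 8 and 71.0 CPM in sub-cluster 14, both like luminal progenitors. Together these 3 sub-clusters held 70.8% to 75.3% of epithelial Il1rn UMIs with 45.8% to 48.9% of epithelial UMIs. Il1a was at 14.3 CPM (8.90 to 17.9) in sub-cluster 7, basal-like cells led by keratin genes Krt16 and Krt6a, where it made up 73.2% of the agonist UMIs (65.3% to 78.3%), and at 1.87 CPM in sub-cluster 4. The decoy Il1r2 made up 57.2% of the Il1r2 and Il1r1 UMIs in sub-cluster 4 (48.2% to 65.0%). Its share was 10.4% in basal-like sub-cluster 7 and 6.90% in sub-cluster 11, the lowest of those compared. The part of neutrophil carry-over within sub-clusters was not tested.

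Fibroblasts of sub-cluster 3, led by Cxcl13 and the matrix metalloproteinase Mmp3 among others, held both the receptor Il1r1 and Il33 at the highest levels of their class. Il1r1 was at 304 CPM there (223 to 346) against 82.5 CPM in all other fibroblasts, and Il33 at 783 CPM (549.9 to 1362) against 243 CPM. These cells were 5.18% to 10.8% of fibroblasts. At the other end, the 400 cells of sub-cluster 5, led by Hhip and Lgr5, held 32.2 CPM of Il1r1 and 26.5 CPM of Il33. In endothelium Il33 was at 124 CPM (61.3 to 165) in sub-cluster 5, led by the lymphatic genes Ccl21a and Mmrn1, and Il1r1 at 83.4 CPM in sub-cluster 0, led by the venular genes Ackr1 and Selp.

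The receptors of the lymphoid class sat in different cells. Il1rl1 was found in the 62 regulatory T-like cells of sub-cluster 4 at 647 CPM (442 to 743) and in the 12 type 2 innate lymphoid-like cells of sub-cluster 12, which had no cell in PSp mouse 1, at 707 CPM. Together they held 90.4% to 100% of lymphoid Il1rl1 UMIs, while the rest of the class held 0 to 4.65 CPM. That rest includes the 140 cells of sub-cluster 7, which met 3 of 5 regulatory T markers, where sub-cluster 4 met 5 of 5. Foxp3 was the first leading gene of sub-cluster 4, while sub-cluster 7 was led by Tnfsf8, Slamf1 and Cd40lg. The cells of sub-cluster 7 may therefore not be regulatory T cells. Sub-clusters 4 and 12 together were 10.7% and 4.61% of lymphoid cells in PSp mice, against 6.70% and 5.57% in PCSp mice. The order of the mice in this share is the order of their lymphoid Il1rl1 level. These 2 sub-clusters were grouped because their Il1rl1 was high, so such an order follows largely from the choice. The part of cell makeup in the spread between mice was not tested.

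Il18r1 was broader. It was highest in sub-cluster 6, 135 cells like gamma-delta T or type 17 cells led by Il17a, at 389 CPM (298 to 456), followed by sub-cluster 7, led by Tnfsf8 and Cd40lg, at 286 CPM, sub-cluster 4 at 226 CPM and the NK-like sub-cluster 3 at 159 CPM. Sub-cluster 6 was also where the lymphoid class had Il1r1, at 91.5 CPM (48.8 to 138), with 63.6% to 92.9% of the lymphoid Il1r1 UMIs, and the rest of the class held 0.958 to 8.25 CPM. These values overlap those of fibroblasts and of endothelium, and were not tested against them.

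**Figure D4:**
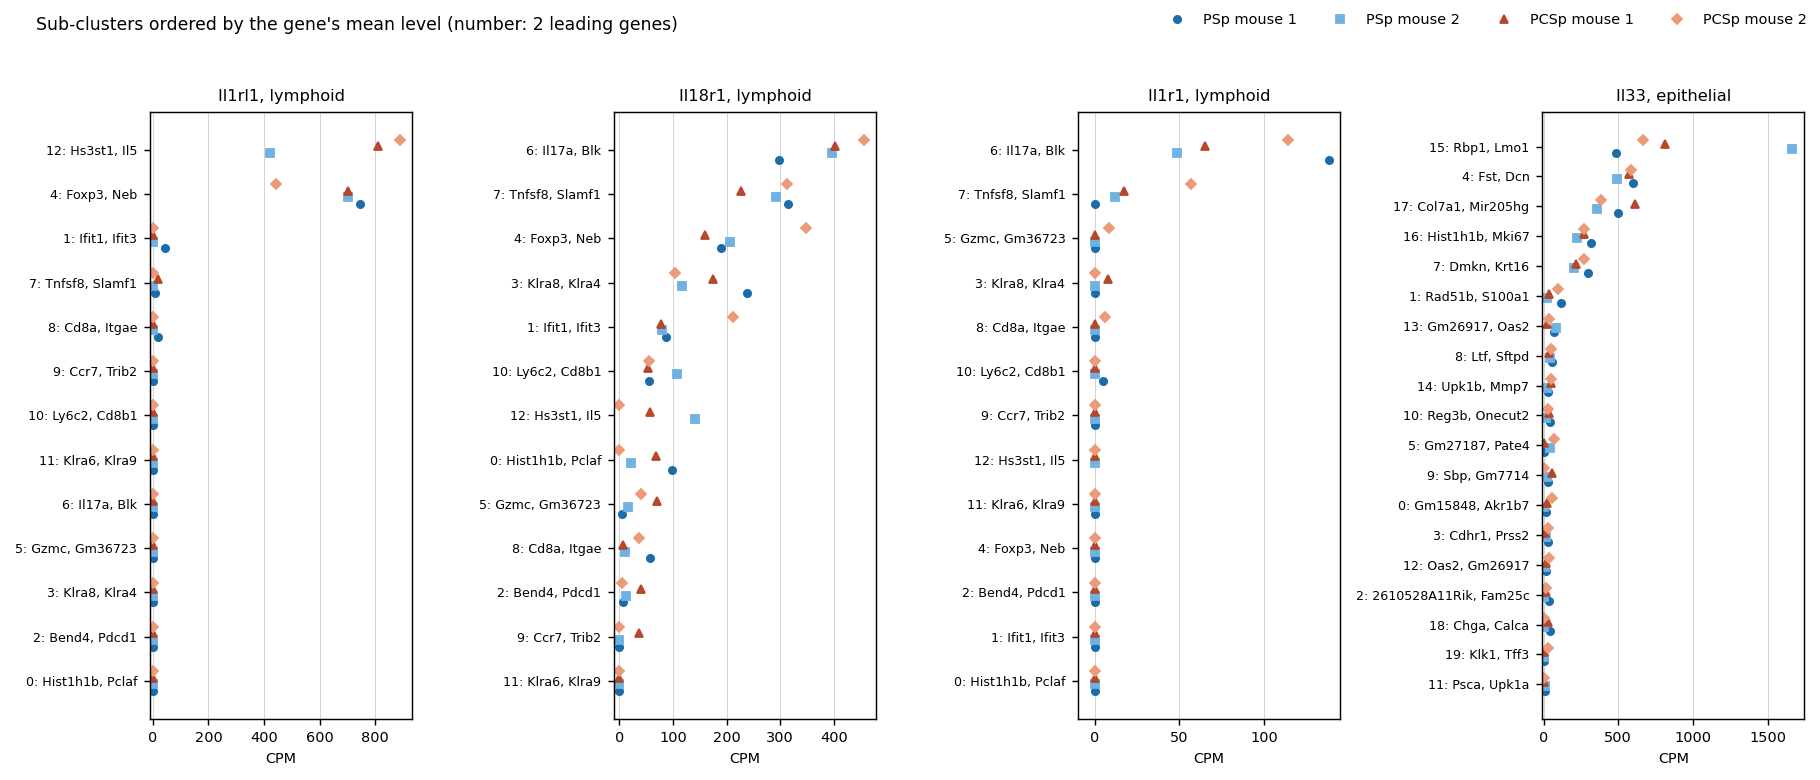
CPM of Il1rl1, Il18r1 and Il1r1 in lymphoid sub-clusters and of Il33 in epithelial sub-clusters, 1 point per mouse, with sub-clusters holding markers of another class left out. Il1rl1 stands out in sub-clusters 4 and 12, Il1r1 in lymphoid sub-cluster 6, and Il33 in epithelial sub-clusters 4, 15 and 17.

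The other genes of the pathway were taken as lists of receptors and ligands, natural inhibitors, inflammasome and processing genes, adaptors and kinases, and induced targets. Nlrp3, the inflammasome sensor, stood at 1637 CPM in neutrophils, 238 CPM in macrophages and 1.26 CPM in epithelium, and the kinase gene Irak2 at 443 CPM in neutrophils. Casp1, the protease that cleaves the precursor, was higher in macrophages (48.7 CPM) than in neutrophils (23.5 CPM), and so was the adaptor Pycard (185 against 36.5 CPM). Il1f9, which encodes interleukin-36 gamma, stood at 301 CPM in neutrophils and below 1 CPM on average in each of the other 5 tested classes. Il18bp, the soluble inhibitor of interleukin-18, was at 60.8 CPM in macrophages.

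Between the genotypes no member passed the test in any class. The comparison asks whether loss of Chd1 in the epithelium goes with a change of the family in any class. Members that passed the filter on low counts were tested with edgeR within each class, 9 of 10 in epithelium and in neutrophils, 7 in macrophages and in fibroblasts, 5 in lymphoid cells and 4 in endothelium, in 41 tests in all. None passed after adjustment over all genes of the class, 6 had an unadjusted p below 0.05, and DESeq2 called none but gave no adjusted p for 8 of the 41. As background, 0% of genes passed in epithelium, 0% in fibroblasts, 0% in endothelium, 0.0884% in neutrophils, 0.0998% in macrophages and 0.512% in lymphoid cells, so that a call was rare for any gene. Over all genes, an unadjusted p below 0.05 was found for 1254 of 16409 in epithelium, 462 of 12067 in fibroblasts and 531 of 9172 in endothelium. It was found for 813 of 9054 in neutrophils, 551 of 10021 in macrophages and 672 of 7812 in lymphoid cells. In the classes with no call, DESeq2 called 181 genes in epithelium, 4 in fibroblasts and 4 in endothelium. With 2 mice per genotype these p-values rest on few mice.

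**Figure D5:**
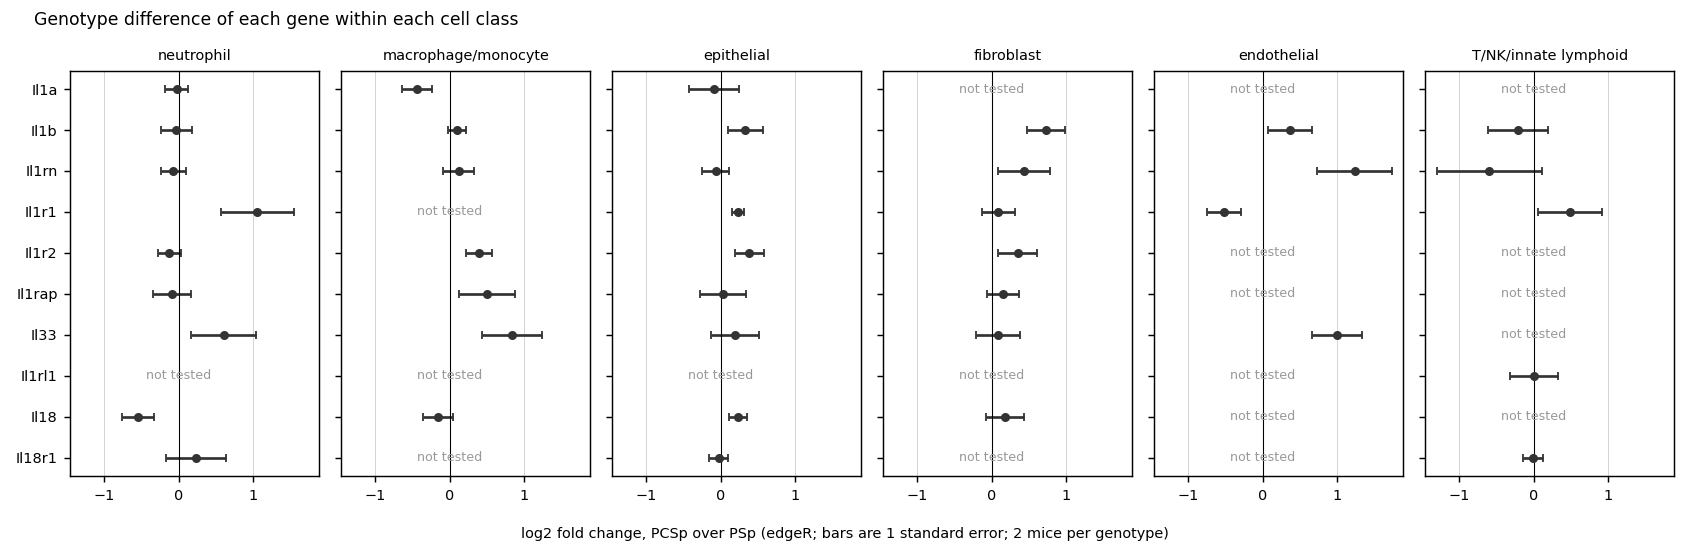
Difference between PCSp and PSp mice for each tested member in each of the 6 classes, as log2 fold change on the horizontal axis with bars of 1 standard error from edgeR. None of the 41 differences passed after adjustment, and those in the class of highest level lie near 0.

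In the class where each was highest, the log2 difference of PCSp over PSp was -0.03 ± 0.21 for Il1b, -0.03 ± 0.15 for Il1a, -0.07 ± 0.17 for Il1rn, -0.13 ± 0.16 for Il1r2 and -0.09 ± 0.26 for Il1rap in neutrophils (SE, 2 against 2 mice, edgeR). It was 0.09 ± 0.22 for Il1r1 and 0.09 ± 0.29 for Il33 in fibroblasts, 0.01 ± 0.32 for Il1rl1 and -0.01 ± 0.14 for Il18r1 in lymphoid cells, and -0.15 ± 0.20 for Il18 in macrophages. The sign of these differences changed when single mice were left out, except for Il1r2. Epithelial Il33, with -0.21 to 0.75 on leaving out each mouse in turn, shows how much 1 mouse can move such a value.

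The median log2 difference of the members tested was 0.19 in epithelium, -0.03 in neutrophils, 0.12 in macrophages, 0.18 in fibroblasts, -0.01 in lymphoid cells and 0.68 in endothelium, where the median of all genes tested lay within 0.01 of 0 in each class. These medians describe 4 to 9 genes each. In fibroblasts 7 of 7 members had a positive difference and none passed.

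The endothelium held 3 of the 6 members with an unadjusted p below 0.05, among 4 members tested there. Over all endothelial genes, 531 of 9172 had such a p. Il33 was at 21.3 and 28.3 CPM in PSp mice and at 65.6 and 31.6 CPM in PCSp mice, a log2 difference of 1.00 ± 0.34 (edgeR adjusted p = 0.765). The high value was that of PCSp mouse 1: without it the difference was 0.34, and without PCSp mouse 2 it was 1.37 with an edgeR adjusted p of 0.00100. It also passed without the filter on low counts (0.98, edgeR adjusted p = 0.0395), and turned to -0.12 when doublets were kept.

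The makeup of the endothelial class differed between the mice as well. The lymphatic-like sub-cluster 5, where Il33 is high, held 7.19% and 14.3% of endothelial cells in PSp mice, against 25.1% and 21.8% in PCSp mice. Sub-cluster 4, led by Krt18 and Krt8 and holding epithelial markers, gave 38.5% and 0% of the endothelial Il33 UMIs in PSp mice, against 33.7% and 3.33% in PCSp mice. The 10 epithelial markers together ranged from 289 to 845 CPM in endothelium over the 4 mice, with none at 0. With cells of mixed sub-clusters left out, the difference was 0.86 (edgeR adjusted p = 0.725). The part of these cells in the result was not tested.

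Il1rn was at 4.10 and 4.71 CPM in the endothelium of PSp mice and at 12.3 and 8.43 CPM in that of PCSp mice (1.24 ± 0.50, edgeR adjusted p = 0.837), levels below the upper bound of neutrophil carry-over, 27.0 CPM. Endothelial Il1r1 was lower in both PCSp mice (-0.52 ± 0.23, edgeR adjusted p = 0.858). Fibroblast Il1b was at 8.53 and 14.2 CPM in PSp mice and 19.9 and 18.3 CPM in PCSp mice (0.74 ± 0.26, edgeR adjusted p = 0.998). In fibroblasts the bounds of carry-over were too far apart to place these values.

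Il18 in neutrophils and Il1r1 in epithelium were the remaining 2 with an unadjusted p below 0.05. Neutrophil Il18, with the values given above, was lower in both PCSp mice, with a log2 difference of -0.55 ± 0.21 (edgeR adjusted p = 0.482). Sub-cluster 7, where neutrophil Il18 is highest, was also a smaller share of neutrophils in both PCSp mice, and its part in the result was not tested. Epithelial Il1r1 was higher in both PCSp mice by 0.24 ± 0.08 (edgeR adjusted p = 0.625), and this difference stayed between 0.23 and 0.24 when each mouse was left out. Macrophage Il1a, at -0.44 ± 0.20 (edgeR adjusted p = 0.891), passed only when PSp mouse 1 was left out, with -0.75 and an edgeR adjusted p of 0.000155, so that call rests on PSp mouse 2 alone in its arm.

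Whether the genotype effect itself differed between classes was tested for each member in each pair of classes where it was tested in both. None of these 74 edgeR interaction tests passed, and 5 had an unadjusted p below 0.05. The smallest adjusted p was 0.513, for Il1r1 in endothelium against neutrophils (-1.60 ± 0.57). Over all genes and pairs of classes, 0.013% of such tests passed. In each pair of classes, 581 to 1005 of 13799 genes had an unadjusted p below 0.05.

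The pathway lists gave no call either. Of 263 tests of listed genes over the 6 classes, 24 had an unadjusted p below 0.05, beside the counts over all genes given above. None passed in edgeR and DESeq2 called 1, with no adjusted p for 22. That gene was Ptgs2, the inducible cyclooxygenase and a target of interleukin-1. In neutrophils Ptgs2 was at 1823 and 1970.2 CPM in PSp mice and at 1043 and 1159 CPM in PCSp mice. The genotypes did not overlap, and the log2 difference was -0.82 ± 0.16 (edgeR adjusted p = 0.124), passing without the filter on low counts (-0.83), in DESeq2 (-0.83) and without PCSp mouse 2 (-0.94).

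The induced targets were otherwise split: 8 of 16 tested were higher and 8 lower in the neutrophils of PCSp mice, 9 and 9 of 18 in epithelium, 8 and 5 of 13 in macrophages, 8 and 6 of 14 in fibroblasts, 8 and 4 of 12 in endothelium and 4 and 4 of 8 in lymphoid cells. Lcn2, an induced antimicrobial protein that epithelium held at 1284 CPM, was at 68.9 and 93.4 CPM in the endothelium of PSp mice and 160.4 and 193 CPM in that of PCSp mice (1.09 ± 0.19, edgeR adjusted p = 0.193). That difference passed when any 1 mouse was left out and turned to -0.14 with doublets kept. Cxcl2 in fibroblasts differed by 0.82 ± 0.28 (edgeR adjusted p = 0.998) and Ptges in epithelium by -0.28 ± 0.08 (edgeR adjusted p = 0.555).

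Among adaptors and kinases, 4 of 14 tested were higher and 10 lower in neutrophils, with Peli1, a ubiquitin ligase of the pathway, at -0.50 ± 0.14 (edgeR adjusted p = 0.372). In epithelium 8 of 15 were higher and 7 lower. Of the natural inhibitors, 2 of 6 were higher and 4 lower in neutrophils, where Tnfaip3, the NF-kB inhibitor A20, had -0.47 ± 0.15 (edgeR adjusted p = 0.375). Of inflammasome and processing genes, 7 of 12 were higher and 5 lower in macrophages, where Casp1 had -0.49 ± 0.16 (edgeR adjusted p = 0.752). Il1f9 in neutrophils was at 266 and 219 CPM in PSp mice and at 265 and 452 CPM in PCSp mice (0.53 ± 0.24, edgeR adjusted p = 0.551), with overlap between the genotypes.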

How the data were processed

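Whole prostate tumours of 4 castrated mice were dissociated and profiled as 4 single-cell 3' libraries, 1 per mouse and 2 per genotype. A further allele that all 4 mice carry is not reported here. The authors' deposited matrices hold whole-number UMI counts per gene and barcode, made with Cell Ranger 6.1.2 on the mm10 genome, per the submitters' processing notes, and no normalization had been applied. The barcode and gene lists deposited beside them hold names only. Positions are from GENCODE M21 (GRCm38), where 32158 of 32285 gene identifiers were found, and promoter windows from RefSeq (GRCm38.p6), where 10 of 10 members matched.

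Barcodes were kept with 300 or more genes, 500 or more UMIs and no more than 20% mitochondrial UMIs. Scrublet's automatic threshold marked 0 to 56 barcodes per library and was not used. Those with the top doublet scores were removed in its place, at 0.8% per 1000 barcodes. Cells were clustered with scanpy 1.11.5 (Python 3.11.15) on 2000 variable genes, 30 components and 15 neighbours, by the Leiden method at resolution 1, with members and listed pathway genes left out of the variable genes. Clusters took the class with most markers, at least 3, at a log2 fold of 1 or more in at least 10% of cells. Cells are not replicates, so counts were summed per mouse and class and tested with the quasi-likelihood test of edgeR 4.0.16 (R 4.3.3, TMM, filterByExpr), two-sided, with Benjamini-Hochberg adjustment over all genes and a threshold of 0.05. CPM were computed from the sums. A 3' tag counts a transcript once whatever its length, so CPM of different genes were compared without length scaling. For classes with a share of cells, each cell with at least 1000 UMIs was also thinned to 1000 UMIs. Cells of fewer UMIs were left out of the thinned shares. The edgeR step was tested on simulated data with known changes.

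The members and lists were chosen with earlier results of these data known. Named genes are the 10 members, from each list the gene of smallest p in a class where none passed, and the 3 genes with the most similar pattern among those with at least 10 CPM in 1 class. Alternatives were DESeq2 1.42.0, other normalizations, no filter on low counts, a stricter cell filter (500 genes, 1000 UMIs, 10% mitochondrial), doublets kept, resolution 2, members kept among the variable genes, and each mouse left out. Leaving out mixed sub-clusters or epithelial clusters with a median under 3000 UMIs, and dropping normalization factors, were chosen after seeing the data. Levels of listed genes other than those of smallest p, and leading genes of sub-clusters, are given as description and were chosen after their values were seen. The NF-kB type letters are a shorter form of a pattern searched first, set after that search had been seen. The longer form had matched fewer windows and, among those printed, not that of Il1r2.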

Additional observations from a re-analysis of the deposited data

How the results depend on the processing

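Of the 10 comparisons of a member's highest class with the next, 9 passed in the main analysis and 9 passed under each alternative run for it, each mouse left out included. DESeq2 was run only between genotypes. The class difference of Il18 turned to 0.19 without normalization factors and ran from -0.36 to 0.12 when each mouse was left out, without passing. No paired analysis was possible because the labels give no replicate numbers that the genotypes share. Depth limits the rare members most, with 266 UMIs for Il1rl1 in all, and 2 mice per genotype limit every difference between genotypes. Leaving out a mouse leaves 1 mouse in an arm, which is then assumed to vary like the other group.

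Member tests that passed between genotypes numbered 0 in the main analysis. They numbered 1 without the filter on low counts (Il33 in endothelium) and 0 to 1 when each mouse was left out. The interaction tests stayed at 0 passing when each mouse was left out. Counts of all genes called moved far more. In lymphoid cells 40 genes were called in the main analysis, 152 without the filter, 24 with doublets kept and 0 to 136 with a mouse left out, with 0 without either PCSp mouse. In endothelium the counts were 0, then 145 without the filter, 4 with DESeq2, 2 with stricter cell filters, 3 without mixed sub-clusters and 38 to 116 with a mouse left out. In epithelium they were 0, then 7 without the filter, 181 with DESeq2 and 0 to 34 with a mouse left out. In fibroblasts they were 0, then 158 without the filter, 4 with DESeq2 and 13 to 164 with a mouse left out. In macrophages they were 10, then 4 without the filter, 17 with DESeq2, 6 with stricter cell filters, 6 without mixed sub-clusters and 14 to 240 with a mouse left out. In neutrophils they were 8, then 191 without the filter, 16 with DESeq2 and 16 to 48 with a mouse left out. The cause of these moves was not tested.

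Some differences between genotypes, none of them passing, changed sign. With doublets kept, Lcn2 in endothelium was at -0.14, Il33 in endothelium at -0.12 and Il1b in lymphoid cells at 0.45. Without normalization factors, Il1a and Il1b in neutrophils were at 0.013 and 0.00474, and Il18r1 in lymphoid cells at 0.043. With DESeq2, Il1rl1 and Il18rap in lymphoid cells were at -0.044 and -0.00497. With the stricter cell filter, Il18r1 and Il1b in lymphoid cells were at 0.079 and 0.62. With each mouse left out in turn, the ranges in epithelium were -0.0083 to 2.03 for Il1f9, -0.34 to 0.15 for Il1rn and -0.21 to 0.75 for Il33. In fibroblasts they were -0.21 to 0.47 for Il1r1, -0.32 to 0.30 for Il1rl2 and -0.30 to 0.62 for Il33. In macrophages they were -0.29 to 0.44 for Il1rn, -0.00063 to 0.21 for Il1b and -0.34 to 0.059 for Il18. In neutrophils they were -0.24 to 0.076 for Il1rn, -0.14 to 0.063 for Il1a, -0.34 to 0.20 for Il1b and -0.65 to 0.29 for Il1rap. In lymphoid cells they were -0.47 to 0.71 for Il1rl1, -0.16 to 0.15 for Il18r1, -0.20 to 0.15 for Il18rap, -0.86 to 0.97 for Il1b and -0.076 to 0.20 for Tnfaip3. Among listed pathway genes, 263 tests gave 0 passing in the main analysis, 1 with DESeq2, 7 of 339 without the filter, and 2 to 9 with a mouse left out.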
